A study of Mus musculus with 23 samples.

Results

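The comparison covered 4 libraries, 2 made with an antibody against Upf1 and 2 made with control IgG, all from mouse embryonic stem cells treated with cycloheximide. They were part of 10 libraries of crosslinking and immunoprecipitation followed by sequencing (CLIP), in a series of 23 samples. The cells were of line v6.5 and grew on feeder fibroblasts, from which they were separated by pre-plating, and they spent the 24 hours before ultraviolet irradiation without feeders. Both groups received cycloheximide at 100 µg/ml for 2 hours, and they differed in the antibody, a rabbit antibody against Upf1 or rabbit IgG. The libraries of each group are called A1 and A2. Beside them stand the 6 libraries of cells without cycloheximide, 3 with each antibody (A1, A2 and I). The labels do not say whether libraries came from separate cultures, and the spread on which p-values rest may therefore be technical. No gene annotation of mouse build mm9, on which the alignments were placed, was used here, so regions carry no gene names, stem cell and feeder markers were not examined, and no sequence is printed.

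Upf1 is an RNA helicase that uses ATP and is required for nonsense-mediated decay, the pathway that degrades mRNAs on which translation ends too early or ends in an unfavourable setting. Upf1 binds RNA with little sequence preference, and translating ribosomes clear it from coding sequence, so it is known to collect in 3′ untranslated regions. Cycloheximide stalls elongating ribosomes on the mRNA and thereby blocks nonsense-mediated decay. In CLIP, ultraviolet light crosslinks RNA to the proteins that touch it, the protein is immunoprecipitated, and the RNA fragments that come with it are sequenced. The IgG libraries measure what is recovered without an antibody to Upf1.

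The regions examined were built from the 4 cycloheximide libraries. Each distinct alignment was counted once per library, where an alignment is defined by its chromosome, start, end and strand. Unspliced alignments on one strand that lay at most 50 nt apart were merged, which gave 50514 regions from 88580 alignments. Tests were made on regions with at least 10 alignments over the 4 libraries that were found in at least 2 of them, which were 235. They held 5.47% of the unspliced alignments. At the limit, 43 tested regions held exactly 10 alignments, 56.0% of them from Upf1, and 74 regions with 9 alignments were left out, with 62.8% from Upf1. Upf1 A1 had 31792 distinct alignments and Upf1 A2 34220, against 7215 in IgG A1 and 19711 in IgG A2. A count of 3 alignments, taken as the limit that a count of 0 allows, was 9.94 and 9.16 of every 100000 unspliced alignments in the Upf1 libraries but 44.1 and 15.9 in the IgG libraries. Most tested regions were small, with a median of 13 alignments over the 4 libraries, so that an absence from IgG A1 says little for any one of them.

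The 2 antibodies did not sample separate pools of molecules. A molecule is here an alignment together with the 2 random adapter letters that its name carries. Of the molecules in IgG A1, 81.6% (Wilson 95% interval 80.8 to 82.5) were also found in another of the 10 CLIP libraries, and in IgG A2 85.4% (84.9 to 85.8). In Upf1 A1 the share was 30.6% (30.2 to 31.1) and in Upf1 A2 36.1% (35.6 to 36.5). A molecule of IgG A1 was found in a Upf1 cycloheximide library in 70.4% of cases and in an untreated library in 2.95%. For IgG A2 these shares were 58.9% and 34.0%. The untreated libraries concerned were mainly IgG A2, which held 25.6% of the molecules of IgG A2 with cycloheximide, and Upf1 A2, which held 20.8%. Within the tested regions, 64.4% of the molecules of IgG A1 and 56.3% of those of IgG A2 were also present in a Upf1 cycloheximide library. Removing molecules found in more than 1 library left 1262 unspliced alignments in IgG A1 and 2793 in IgG A2, against 21974 and 22318 in Upf1 A1 and A2. The libraries are therefore not independent samples, and what share of the IgG signal arose in the IgG precipitations themselves was not tested.

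**Figure D1:**
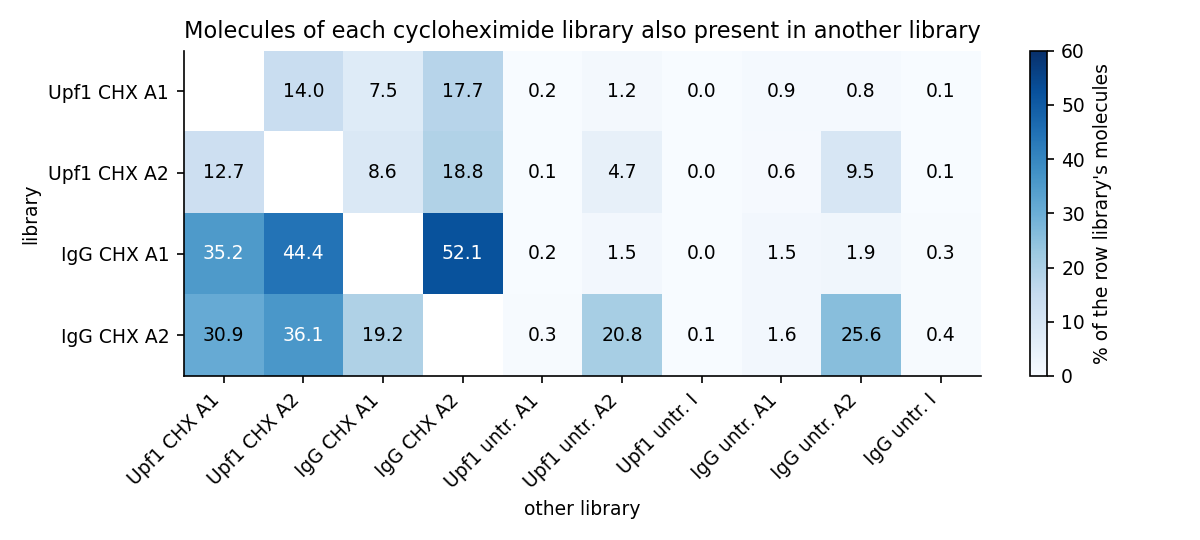
Percentage of the molecules of each cycloheximide library (rows) that were also present in each of the other CLIP libraries (columns). IgG A1 shared 35.2% of its molecules with Upf1 A1, 44.4% with Upf1 A2 and 52.1% with IgG A2, while the Upf1 libraries shared 14.0% and 12.7% with each other.

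With Upf1, 8 regions were recovered more often than with IgG and 1 was recovered less often, of 235 tested (limma-voom, Benjamini-Hochberg adjusted p under 0.05 over all tested regions). Calls thus made up 3.4% of tested regions in the direction of Upf1 and 0.426% in that of IgG. Before adjustment, p was under 0.05 for 18 regions higher and 10 lower. Scaling used trimmed means of M values (TMM), which centres the bulk of regions, and the median log2 ratio of Upf1 to IgG was then -0.01. With scaling to library totals it was -0.80, so most regions made up a smaller share of the Upf1 libraries than of the IgG libraries, and log2 ratios are given here relative to the bulk of regions. The split of calls moved with this choice: with library totals, 6 regions were called higher and 20 lower. After TMM, both Upf1 libraries lay above both IgG libraries in 50 regions (21.3%) and below both in 49 (20.9%). Tested regions held 4.86% of the unspliced alignments in Upf1 A1 and 4.31% in Upf1 A2, against 9.22% in IgG A1 and 7.10% in IgG A2.

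**Figure D2:**
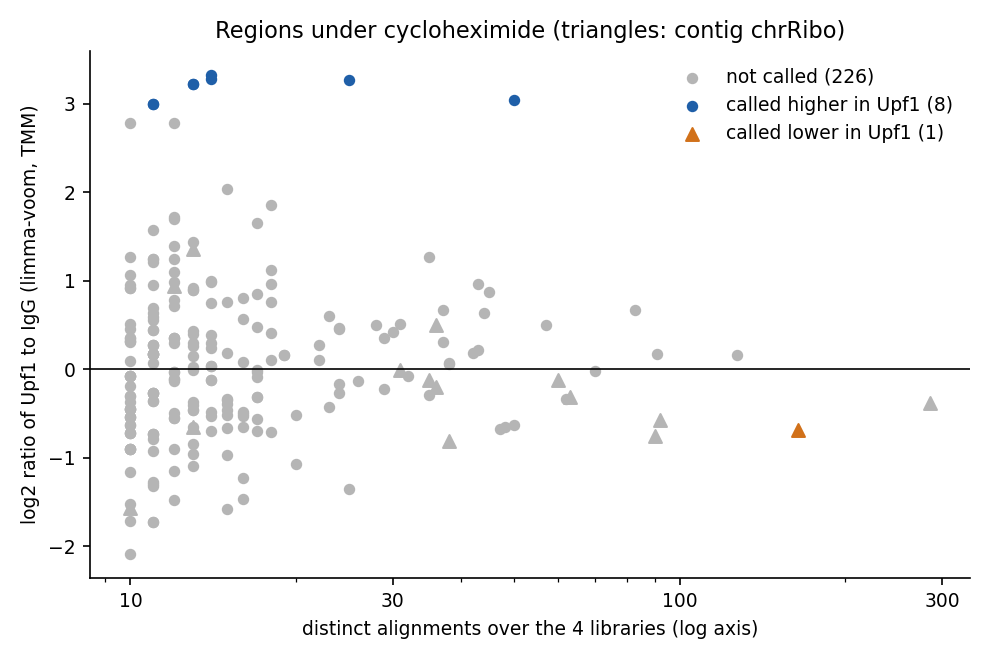
TMM-scaled log2 ratio of Upf1 to IgG (vertical axis) against the number of distinct alignments over the 4 cycloheximide libraries (horizontal log axis) for the 235 tested regions, 1 point each, with chrRibo regions as triangles. The 8 regions called higher lie between 2.999 and 3.33, and the other regions reach up to 2.78. The 1 called lower is a large chrRibo region at -0.68.

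The regions called higher held alignments in both Upf1 libraries, most of them few: 6 held 5 to 9 per library. Summed over the 8, Upf1 A1 held 73 alignments and Upf1 A2 74, while IgG A1 held 1 and IgG A2 held 3. Per 100000 unspliced alignments these sums were 242 and 226 against 14.7 and 15.9. Both Upf1 libraries were thus high and both IgG libraries were close to empty, but the test chose these regions for that difference. Of the 8, 6 held no IgG alignment with cycloheximide, passed the minimum of 10 alignments through the Upf1 libraries alone and could differ in one direction only. In all, 8 of the 235 regions were without an IgG alignment and none was without a Upf1 alignment. The IgG libraries held 6798 and 18849 unspliced alignments and the Upf1 libraries 30186 and 32747, so an absence comes more easily in IgG. How many regions depth alone would leave without IgG was not tested. The other two without IgG did not pass, with log2 ratios of 2.78 each: chromosome 14, positions 56102089 to 56102118, minus strand (3 and 7 Upf1 alignments, limma adjusted p = 0.0610) and chromosome 3, positions 157479700 to 157479742, minus strand (10 and 2, limma adjusted p = 0.193). With a replicate block, which takes A1 and A2 as pairs, both passed (limma adjusted p = 0.00932 and 0.00500), as they did when only overlapping alignments were merged (0.00886 each). Both were singled out after their values were seen.

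The called region with the most alignments lay on chromosome 10, positions 82417872 to 82418158 (minus strand). It held 24 alignments in Upf1 A1 and 23 in Upf1 A2, against 1 in IgG A1 and 2 in IgG A2. Pooled over libraries the rate was 74.7 of every 100000 for Upf1 and 11.7 for IgG, a ratio of 6.38 with an exact 95% counting interval of 2.06 to 32.1. The log2 ratio after TMM was 3.05 ± 0.54 (SE, limma adjusted p = 0.0145). Without cycloheximide the antibodies stood the other way round in part: the Upf1 libraries held 4, 24 and 3 alignments in A1, A2 and I, and the IgG libraries 38, 0 and 46. The 2 untreated libraries with the highest rates there were IgG A1 (372 of every 100000) and Upf1 A2 (119).

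A region of 55 nt on chromosome X, positions 40607296 to 40607350 (plus strand), held 12 alignments in each Upf1 library, 0 in IgG A1 and 1 in IgG A2. Its ratio of pooled rates was 9.78, with a counting interval of 1.59 to 402, and its log2 ratio 3.27 ± 0.56 (limma adjusted p = 0.0145). In untreated cells it held 2, 14 and 6 alignments with Upf1 and 2, 0 and 2 with IgG, and untreated Upf1 A2 was the highest of the 10 libraries at 69.3 of every 100000.

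On chromosome 4, 2 regions of 48 nt had alike profiles. The first, positions 82975209 to 82975256 (plus strand), held 7 alignments in each Upf1 library and none in IgG. With the IgG group set to the limit of 3 counts, that is 1.90-fold higher. The counting error of the Upf1 libraries is not part of this fold, which is therefore no lower bound. The second, positions 119198095 to 119198142 (minus strand), held 7 and 6 and none, 1.77-fold higher at that limit. Both had a limma adjusted p of 0.0145, with fitted log2 ratios of 3.33 ± 0.60 and 3.22 ± 0.61. A fitted ratio against empty libraries depends on the offset of 0.5 that is added before the logarithm, and is no bound either. In untreated cells the 3 Upf1 libraries held 6, 6 and 12 alignments in the first region and 8, 6 and 9 in the second. The untreated IgG libraries held 2, 0 and 1, and 2, 0 and 2. In these regions each untreated Upf1 library held more alignments than each untreated IgG library, though the rate in IgG A1 (19.6 of every 100000, from 2 alignments) lay above those in Upf1 A1 and I.

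The other four called regions were smaller in number of alignments. On chromosome X, positions 73374359 to 73374438 (minus strand) held 7 and 6 Upf1 alignments and none from IgG (1.77-fold higher at the IgG limit, limma adjusted p = 0.0145). On chromosome 7, positions 137978009 to 137978139 (plus strand) held 5 and 9 and none (1.90-fold higher at the IgG limit, limma adjusted p = 0.0161). These 2 regions differed in untreated cells: the first held 24 and 8 alignments in IgG A1 and I, the second 1 and 4. On chromosome 9, positions 52913475 to 52913512 (minus strand) held 6 and 5 and none (1.49-fold higher at the IgG limit, limma adjusted p = 0.0161). On chromosome 1, positions 56839061 to 56839169 (minus strand) held 5 and 6 and none (1.49-fold higher at the IgG limit, limma adjusted p = 0.0161). The chromosome 9 region was empty in the 3 untreated IgG libraries and held 1, 6 and 0 alignments in the untreated Upf1 libraries, whereas the chromosome 1 region held 8 and 20 in untreated IgG A1 and I.

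**Figure D3:**
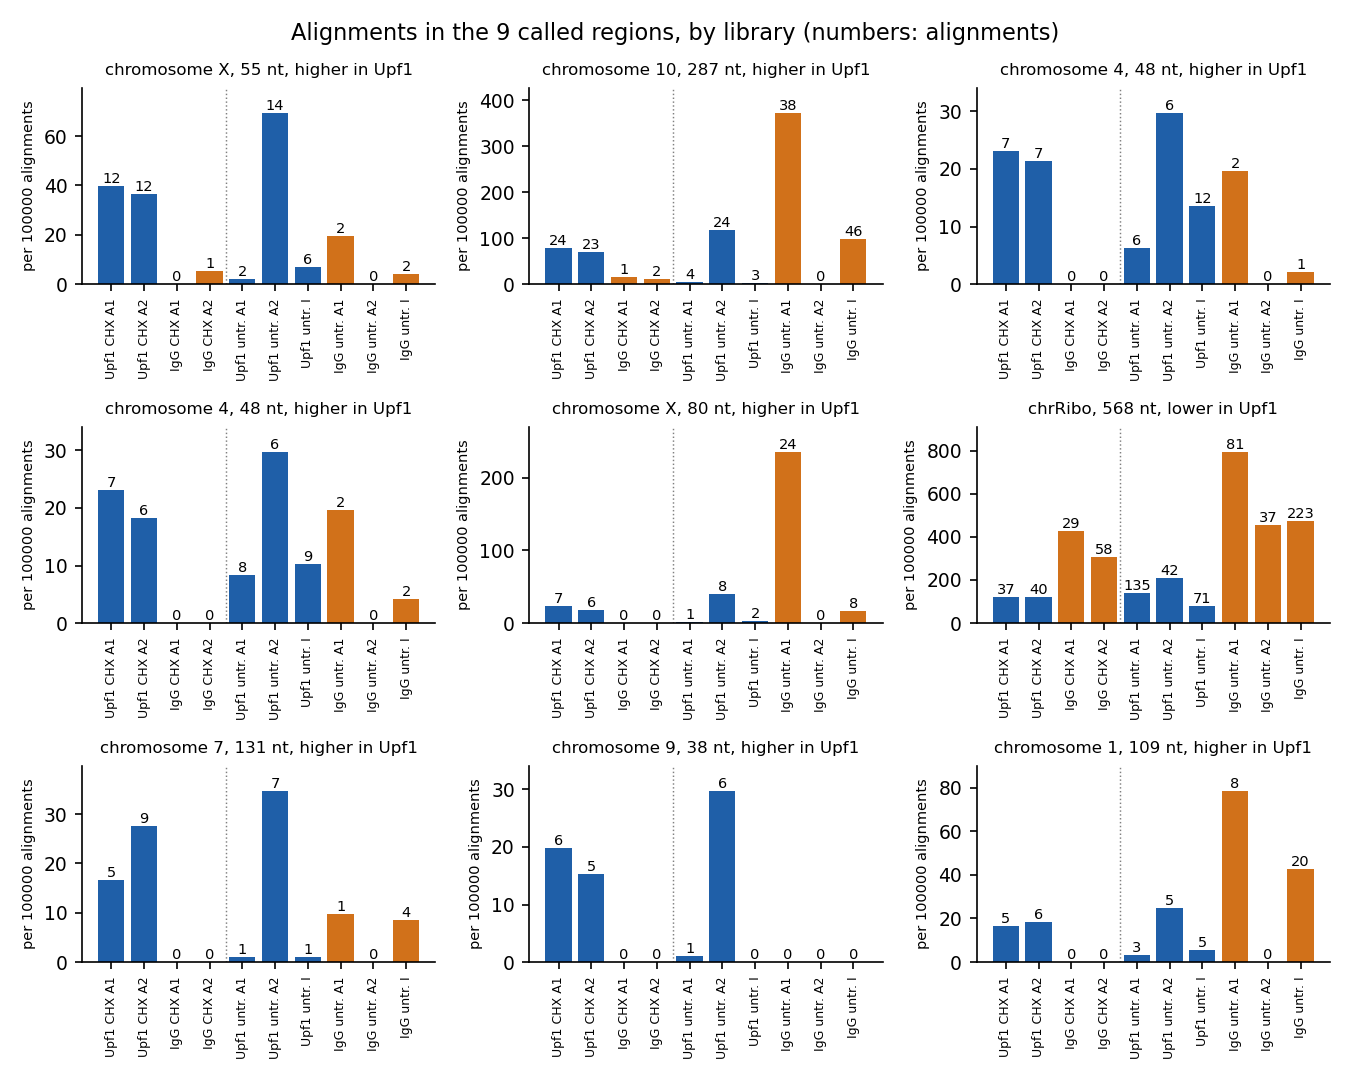
Alignments of every 100000 unspliced ones (bar height, from 0) in the 9 called regions, 1 panel each, in the 10 CLIP libraries (Upf1 blue, IgG orange, number of alignments above each bar, cycloheximide left of the dotted line). In the 8 regions higher in Upf1, IgG A1, IgG A2 and untreated IgG A2 held 0 to 2 alignments, while the other untreated IgG libraries held up to 46.

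The 8 called regions shared a position away from the spliced spans seen in these libraries. Spliced alignments, those that spanned more than 60 nt, were merged into 3693 spans over all 10 CLIP libraries, the untreated ones included. All 8 called regions lay more than 2000 nt from any span on their strand. Of all tested regions 104 (44.3%) lay there. Spliced RNA whose junctions were not sampled, or lay farther off, also counts there, so this does not place the regions outside spliced genes. The median width of the 8 was 67.5 nt (38 to 287) against 91 nt (27 to 639) for all tested regions. A median of 29.7% of their alignments were shorter than 30 nt, against 43.8% over all. Each of the 8 was the only tested region within 5000 nt on its strand, as were 135 of the 235.

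Summed over the 8 regions, the untreated libraries did not separate by antibody, although the regions differed. Fitted in the untreated libraries alone, 5 of the 8 had a log2 ratio above 0, and none was called by limma-voom. The median untreated log2 ratio of the 8 was 0.76, against 0.07 over all tested regions. Most alignments of untreated IgG A1 and I lay in the regions on chromosomes 10 and 1 and the minus-strand region on chromosome X. Untreated IgG A2, which shared 54.3% of its molecules with IgG A2 with cycloheximide, held 0 alignments over the 8 regions, which allows up to 36.9 of every 100000, while untreated IgG A1 held 77 and untreated IgG I held 83. Untreated Upf1 A1, A2 and I held 26, 76 and 38. Per 100000 unspliced alignments, untreated IgG A1 (754) lay above every Upf1 library, of which untreated Upf1 A2 was the highest (376) and untreated Upf1 A1 the lowest (26.9). The part of the shared molecules in these values was not tested. Once molecules found in more than 1 library were removed, the 8 regions held 45 and 55 Upf1 alignments in the cycloheximide libraries and none of the 4 IgG alignments, which were few to begin with. Only 4 of the 8 could then be tested, among 52 regions, and none was called by limma-voom. Over those 52 regions 0 were called higher and 2 lower, and 4 in each direction had an unadjusted p under 0.05. The IgG libraries then kept 1262 and 2793 unspliced alignments, against 21974 and 22318 in Upf1 A1 and A2. At that depth an empty IgG library limits the rate of a small region only loosely, so the lack of a call cannot decide whether it differed.

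All but 1 of these calls, that on chromosome 10 without Upf1 A2, were lost when a library was left out, although on chromosome 10 the log2 ratio was then 2.84 to 3.11. Such a fit leaves 1 library in a group, which is assumed to vary like the other group. Without IgG A1 or without IgG A2 limma-voom called no region higher (10 and 19 had an unadjusted p under 0.05), although the 8 could all be tested. Without Upf1 A1 or without Upf1 A2 only 2 of the 8 passed the filter, of which the chromosome 10 region was called without Upf1 A2 (limma adjusted p = 0.00634) and neither without Upf1 A1. The 1 region called without Upf1 A1 was another, on chromosome 3, positions 96364485 to 96364745 (plus strand), with a log2 ratio of 1.82. With distinct molecules counted in place of distinct alignments, limma-voom called 0 of 410 regions higher (28 at an unadjusted p under 0.05). A second tool, limma with a trended prior on log2 values, called 2 of the 8, those on chromosome 10 and on chromosome X at position 40607296.

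The antibodies were also compared between treatments. A test of whether the Upf1 to IgG ratio with cycloheximide differed from that without it, in a model of all 10 CLIP libraries, called 0 of 235 regions (0%), by limma-voom and by trended limma, and limma-voom gave an unadjusted p under 0.05 to 6 higher and 1 lower. The smallest limma adjusted p was 0.540. The lowest unadjusted p belonged to the chromosome 10 region, with a difference in log2 ratio of 4.54 ± 1.56 (SE), followed by the chromosome X region at position 73374359, with 4.32 ± 1.52. The 5 regions with the lowest p included 1 more called region, on chromosome 1, with 3.58 ± 1.46. These called regions had been chosen for a high ratio in the same cycloheximide libraries, and that ratio is part of the difference. Those on chromosomes X and 1 held no IgG alignment with cycloheximide, so their differences also depend on the offset of 0.5. The 5 regions with the lowest p also included chromosome 15, positions 12864771 to 12864871, plus strand, where the Upf1 libraries held 7 and 3 alignments and the IgG libraries 0 and 3. The last was chromosome X, positions 132424054 to 132424108, plus strand, with 5 and 5 against 0 and 2. These 2 regions held at most 2 alignments in any untreated library. Tested in the untreated libraries alone, over the same 235 regions, limma-voom called 0 higher (12 at an unadjusted p under 0.05) and 1 lower (0.426%). The latter was chrRibo, positions 5078 to 5137, at a log2 ratio of -3.44. The 235 regions were built from the cycloheximide libraries alone, so regions covered only in untreated cells could not enter either test. They held 2.05%, 3.76% and 1.62% of the unspliced alignments in untreated Upf1 A1, A2 and I. In untreated IgG A1, A2 and I they held 6.25%, 7.03% and 3.88%.

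Alignments to the contig chrRibo were recovered less with Upf1 than with IgG. The labels do not describe this contig. It held 0.912% (Wilson 95% interval 0.813 to 1.02) of the distinct alignments in Upf1 A1 and 0.798% (0.709 to 0.898) in Upf1 A2. In IgG A1 it held 1.87% (1.58 to 2.21) and in IgG A2 1.90% (1.72 to 2.10). The groups did not overlap, and the mean was 0.855% ± 0.081 for Upf1 and 1.89% ± 0.022 for IgG (SD, n = 2 each, difference of -1.03 percentage points). The exact two-sided permutation test gave p = 0.333, the smallest that 2 against 2 libraries allow, and an adjusted p of 0.583 over 7 shares. Without cycloheximide the means were 1.104% ± 0.377 and 3.94% ± 1.55 (SD, n = 3 each). Without shared molecules the difference was -2.17 points.

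On chrRibo lay 15 of the tested regions, all (plus strand). Relative to the bulk of regions 12 had a log2 ratio below 0 and 3 above, with a median of -0.31 against -0.01 over all regions. One was called: positions 10515 to 11082 held 37 and 40 alignments in Upf1 A1 and A2 and 29 and 58 in IgG A1 and A2. Those are 123 and 122 of every 100000 for Upf1 and 427 and 308 for IgG. The log2 ratio there was -0.68 ± 0.14 (limma adjusted p = 0.0161), and in untreated cells -0.91. This region was not called with trended limma, with distinct molecules, without IgG A1 or without Upf1 A1.

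The other chrRibo regions did not pass over the 235 regions, but several did in other settings. Positions 9814 to 10196 held 22 and 19 Upf1 alignments against 13 and 36 from IgG (log2 ratio -0.75 ± 0.23, limma adjusted p = 0.162), and at 72.9 and 58.0 against 191 and 191 of every 100000 the groups did not overlap. This region passed without shared molecules (log2 ratio -1.67, limma adjusted p = 0.0437), as did the called one at 10515 (-1.48, limma adjusted p = 0.0437). Positions 8837 to 9251, the region with the most alignments of all (285), held 79 and 69 against 38 and 99, with a log2 ratio of -0.39 (limma adjusted p = 0.296). Positions 7373 to 7709 held 23 and 21 against 9 and 39, and positions 7926 to 8424 held 14 and 20 against 8 and 21. The regions at 9814, 8837 and 7373 also passed with library totals and with both stricter filters, at least 30 alignments or at least 10 in each of 2 libraries (limma adjusted p from 1.13e-06 to 0.0495). The region at 7926 passed with library totals (-1.09, limma adjusted p = 0.0324), also without shared molecules (-2.10, limma adjusted p = 0.0300). For the regions at 7373 and 7926 the groups overlapped after TMM, although the rates per 100000 were lower in Upf1. The chrRibo region with the highest ratio, positions 1235 to 1296, held 6 and 5 Upf1 alignments and 1 and 1 from IgG, with a log2 ratio of 1.36 ± 0.64 that did not pass (limma adjusted p = 0.396).

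The 5 regions with the lowest p in the direction of IgG also included 2 outside chrRibo, on chromosome 4, positions 133560239 to 133560495, minus strand, and on chromosome 9, positions 110842213 to 110842243, minus strand. Each held 1 and 2 Upf1 alignments and 3 and 5 from IgG, with a log2 ratio of -1.72 ± 0.67 (limma adjusted p = 0.296). With so few alignments neither could be told from the bulk of regions.

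Outside chrRibo, the most heavily covered RNA was recovered by both antibodies. The largest cluster lay on chromosome 19, positions 5796055 to 5802503 (minus strand), where 19 tested regions followed each other over 6449 nt. None was called over the 235 regions. It held 225 alignments in Upf1 A1, 233 in Upf1 A2, 73 in IgG A1 and 198 in IgG A2. Those are 745 and 712 of every 100000 in the Upf1 libraries and 1074 and 1050 in the IgG libraries, so by library totals IgG was the higher of the groups. Its 19 regions had a median log2 ratio of 0.19 after TMM, with 12 above 0, and of -0.59 with library totals, with 3 above 0. This shift was that of all regions, whose median went from -0.01 to -0.80. With at least 10 alignments in each of 2 libraries (32 regions), 5 regions of the locus were called higher, those starting at 5798887, 5799963, 5800425, 5802098 and 5802300 (log2 ratios of 0.82 to 1.74, limma adjusted p from 1.57e-05 to 0.0416), and the one at 5797393 was called lower (-0.79, 0.0414). With at least 30 alignments, those at 5798887 and 5802098 were called higher. With library totals, those at 5796055 and 5797393 were called lower (-1.12 and -1.43), and with library totals and without shared molecules those at 5797393, 5799676 and 5801082 (-2.68, -1.70 and -1.39). Its most covered region, positions 5801082 to 5801720, held 38 and 40 Upf1 alignments and 17 and 32 from IgG (log2 ratio 0.15 ± 0.16 with TMM and -0.64 with library totals). At its 3′ end, positions 5796055 to 5796259 held 17 and 16 against 9 and 20 (-0.33 ± 0.24, limma adjusted p = 0.599).

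**Figure D4:**
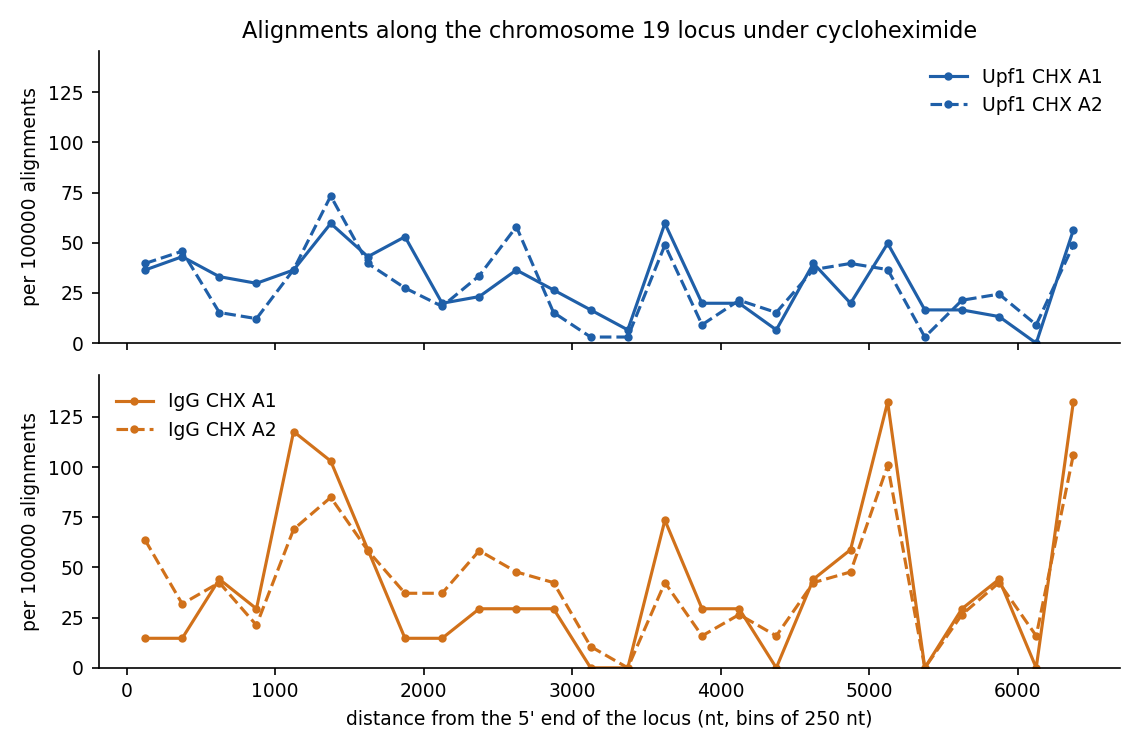
Distinct alignments of every 100000 unspliced ones in bins of 250 nt along the chromosome 19 locus, from its 5′ end, in the 2 Upf1 libraries (top) and the 2 IgG libraries (bottom) with cycloheximide. Upf1 was highest between 1250 and 1500 nt (59.6 and 73.3), and Upf1 A1 also reached 59.6 between 3500 and 3750 nt. IgG was high between 5000 and 5250 nt (132 and 101) and between 6250 and 6500 nt (132 and 106). In that last bin Upf1 was at 56.3 and 48.9. All 4 were at or below 6.63 between 3250 and 3500 nt.

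The profile along this locus was uneven with both antibodies. Between 3250 and 3500 nt from its 5′ end the Upf1 libraries held 2 and 1 alignments and the IgG libraries none. In the last bin, 6250 to 6500 nt, all 4 libraries were high, with 17 and 16 alignments for Upf1 and 9 and 20 for IgG.

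The second cluster outside chrRibo lay on chromosome 17, positions 45705370 to 45708559 (minus strand), with 8 tested regions. It held 107 and 97 Upf1 alignments and 48 and 72 from IgG. IgG A1 stood apart at 706 of every 100000, while IgG A2 was at 382 and the Upf1 libraries at 354 and 296. In the untreated libraries the same stretch held 13.5 to 20.4 of every 100000 with Upf1 and 17.0 to 123 with IgG, the highest in untreated IgG A2. Its most covered regions, positions 45707145 to 45707517 (29 and 27 against 13 and 22) and 45705800 to 45706052 (28 and 29 against 12 and 14), had log2 ratios of 0.17 ± 0.20 and 0.67 ± 0.25 with TMM and -0.63 and -0.12 with library totals, and neither passed. On chromosome 1, positions 88253652 to 88253769 (minus strand) held 21 and 20 Upf1 alignments and 10 and 19 from IgG (log2 ratio -0.02 ± 0.23).

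Another cluster of 8 regions, on chromosome 11, positions 95818748 to 95824845 (minus strand), held 35 and 40 Upf1 alignments and 13 and 44 from IgG. Its rates were 116 and 122 against 191 and 233 of every 100000, and its median log2 ratio was -0.24. None of its regions was called. Unlike the chromosome 17 cluster it was well covered in untreated cells, with 82.6 to 233 of every 100000 in the Upf1 libraries.

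By position relative to spliced spans, the median ratio of each class of tested regions stayed near that of all regions. The 57 regions inside a spliced span had a median log2 ratio of 0.16, the 38 within 2000 nt on the 3′ side -0.01, the 19 within 2000 nt on the 5′ side -0.19 and the 104 elsewhere 0.09, beside -0.01 for all 235. In each of the first 3 classes no region was called in either direction by limma-voom. The 104 regions of up to 80 nt had a median of -0.18, with 5 called higher, and the 131 wider ones 0.15, with 3 called higher and 1 lower. These medians fell by about the same amount with library totals, to -0.63, -0.76, -1.03 and -0.73 for the 4 position classes. The smaller and fewer classes, such as the 2 regions on the mitochondrial chromosome (log2 ratios of -1.09 and 0.03), allow no more than their values.

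Among alignments near spliced spans, whether the share on the 3′ side overlapped between the antibodies depended on the setting. The 3′ side is where 3′ untranslated sequence without introns would lie, but no annotation was at hand to check this. Among the unspliced alignments inside a span or within 2000 nt of one, 41.8% (Wilson 95% interval 40.2 to 43.4) were on the 3′ side in Upf1 A1 and 40.04% (38.5 to 41.6) in Upf1 A2. In IgG A1 the share was 41.6% (38.9 to 44.4) and in IgG A2 44.6% (42.8 to 46.4). The groups overlapped, and the means of 40.9% ± 1.22 and 43.1% ± 2.12 (SD, n = 2 each) differed by -2.20 points (exact two-sided permutation test, p = 0.667, adjusted p = 0.778). They did not overlap without shared molecules (42.2% and 39.5% against 42.9% and 42.6%) or within 1000 nt of a span (35.03% and 33.4% against 35.1% and 37.4%), each with p = 0.333 in the exact permutation test. In untreated cells the means were 60.4% ± 6.76 with Upf1 and 50.6% ± 7.98 with IgG (SD, n = 3 each).

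The share of spliced alignments overlapped between the antibodies, and that of short ones did so only in part. Spliced alignments made up 5.05% and 4.30% in Upf1 A1 and A2 and 5.78% and 4.37% in IgG A1 and A2 (difference of -0.40 points, exact two-sided permutation p = 0.667). Alignments shorter than 30 nt made up 50.4% and 52.3% of the unspliced ones in Upf1 and 52.6% and 48.4% in IgG, with an exact two-sided permutation p = 1. Alignments shorter than 25 nt did not overlap, with 25.4% and 28.1% in Upf1 and 23.3% and 20.3% in IgG (difference of 4.96 points, exact two-sided permutation p = 0.333, the smallest possible). Nor did those shorter than 30 nt when every line was counted (3.45 points). In the first 2 measures A1 and A2 of IgG differed by more than the means of the groups did.

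The mitochondrial chromosome and the most covered regions followed chrRibo. Mitochondrial alignments made up 0.0786% and 0.108% in Upf1 and 0.180% and 0.178% in IgG, without overlap of the groups but from only 25, 37, 13 and 35 alignments. Without shared molecules these groups overlapped (0.0607% and 0.0816% against 0.0749% and 0.239%). The 20 regions with the most alignments held 1.56% and 1.36% of unspliced alignments in Upf1 and 3.06% and 2.59% in IgG. In exact two-sided permutation tests both had p = 0.333, the smallest possible, and an adjusted p of 0.583 over the 7 shares. Those 20 regions were chosen for their coverage over the same 4 libraries, and large chrRibo regions were among them. In untreated cells the 20 regions held 1.06% ± 0.551 with Upf1 and 3.26% ± 0.992 with IgG (SD, n = 3 each). The share of molecules also found in another library differed by -50.1 points (33.4% ± 3.84 against 83.5% ± 2.63, SD, n = 2 each, exact permutation p = 0.333).

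**Figure D5:**
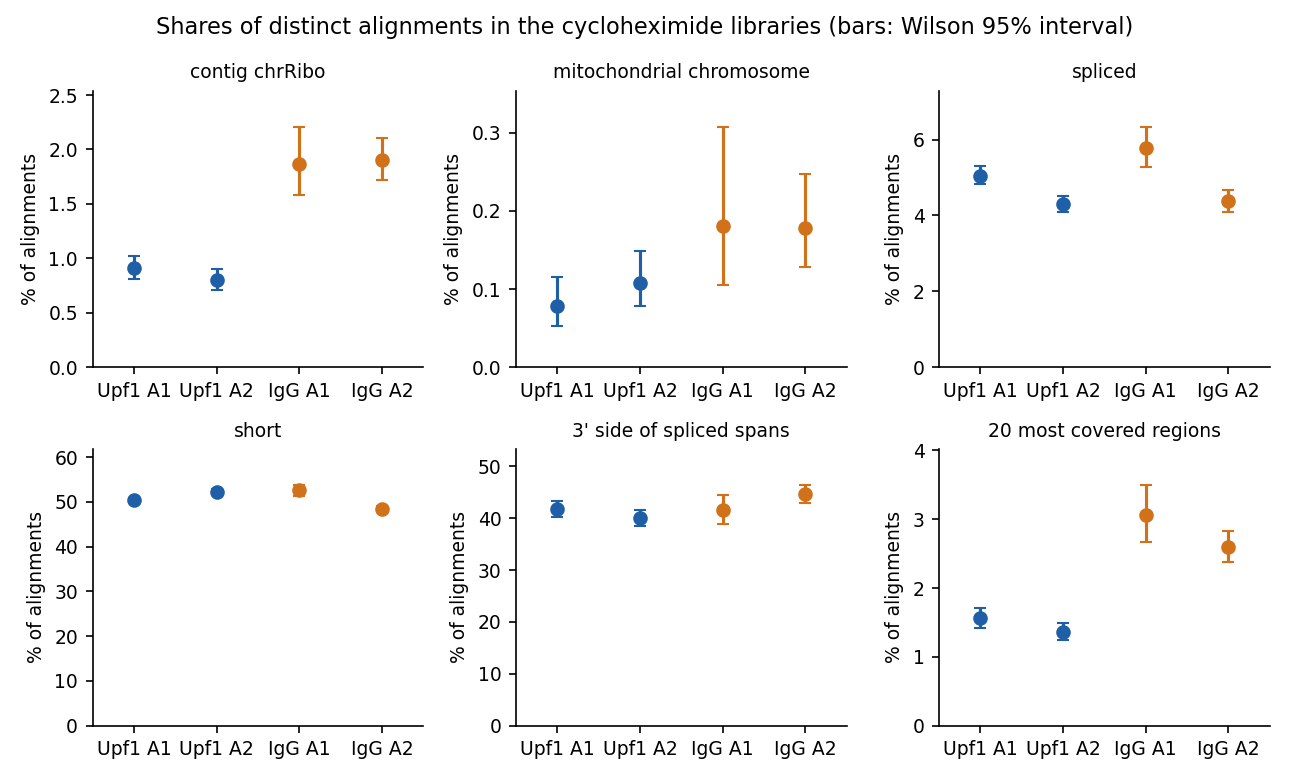
Shares of distinct alignments (vertical axes, in percent, from 0) in the 4 cycloheximide libraries, 1 panel per share, with Wilson 95% intervals that cover counting error only (Upf1 blue, IgG orange). The chrRibo share was 0.798 to 0.912% in Upf1 and 1.87 to 1.90% in IgG, without overlap, whereas the spliced, short and 3′ side shares overlapped between the antibodies.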

How the data were processed

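The authors deposited 1 alignment file per CLIP library, on mouse build mm9 and a contig named chrRibo. Bowtie 0.12.6, TopHat 1.4.0 and Cufflinks 1.3.0 are listed, per the submitters' processing notes, with no role given. The score column of the deposited files held 255 in each line and carried no measurement. Per the labels, 2 random adapter nucleotides served to filter PCR copies. Lines with the same position and letters numbered at most 2 in the Upf1 cycloheximide files but up to 262 in the IgG ones, so the deposited files were not filtered alike, and distinct alignments were counted.

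Tallies of lines are not a deposited count table, so limma-voom (limma 3.58.1, R 4.3.3) with TMM scaling (trims of 30% and 5%) was used, on the 4 libraries, two-sided, with Benjamini-Hochberg adjustment and a threshold of 0.05. The trended limma test used log2 values with an offset of 0.5. The rate of a region is its alignments of every 100000 unspliced ones, and SE is that of the log2 ratio. Spans of spliced alignments longer than 20000 nt were left out. Tested regions at most 5000 nt apart formed a locus. Shares were compared with exact permutation tests over 7 shares (scipy 1.17.1). Intervals and the limit of 3 counts cover counting error only.

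Regions were named by rule: of regions past the threshold with the same sign in both same-numbered pairs, the 10 of lowest p per direction (the 5 of lowest p, passing or not, where fewer than 5 passed), the 10 with the most alignments, and the 5 with the lowest p of the difference between treatments. Other regions were chosen after their values were seen. The members and lists were chosen with earlier results of these data known. A stricter reading of the region rule, at least 10 alignments in each of 2 libraries, left 32 regions and is given with the alternatives. Gene lists, cell markers and the 13 samples of other assays were not analysed here.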

Additional observations from a re-analysis of the deposited data

How the results depend on the processing

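Of the 8 regions called higher, 6 held no IgG alignment, which all but fixed their sign. Fitted with library totals and without shared molecules, the chromosome 7 region nevertheless had a log2 ratio of -0.10. It held no IgG alignment there either, so this fitted value depends on the offset added before the logarithm. The value does not show a lower recovery of that region with Upf1. Regions called higher numbered 9 with gaps up to 200 nt (304 tested) and with overlapping alignments only (184), and 6 with library totals. Without chrRibo regions (220) the same 8 were called, and the 1 region called lower, on chrRibo, was not tested. Regions called higher numbered 0 by limma-voom with every line counted (581 tested, 1 at an unadjusted p under 0.05), distinct molecules (410, 28), no filter (50514, 2930), the spread of all 10 libraries (235, 11), and without shared molecules with TMM (52, 4) or library totals (52, 0). They numbered 1 in windows of 10000 nt, 2 with trended limma and 3 with at least 30 alignments, and 0 to 1 when a library was left out. Regions called lower numbered 20 with library totals, 8 with at least 10 alignments in each of 2 libraries (where 7 were higher, 2 of the 8 and 5 on chromosome 19), 4 with at least 30 alignments, and 2 without shared molecules (12 with library totals also). They numbered 0 in windows of 10000 nt, with distinct molecules, every line counted, gaps up to 200 nt, no filter, the spread of all 10 libraries, trended limma and without chrRibo regions, and 0 to 2 when a library was left out. Leaving out a library also left fewer regions past the filter (107 to 171), and otherwise the cause was not tested. The labels number the libraries A1 and A2 with both antibodies; with this replicate block 10 were called higher and 1 lower, the 8 included. Deviations of same-numbered libraries had a correlation of -0.12 over regions, and with the numbers crossed 9 were higher and 1 lower, an alternative chosen after seeing the data, as was leaving out chrRibo. For the difference between treatments, 1 region was called with library totals and 0 in the other settings by limma.

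The spliced share difference turned to 0.305 points without IgG A1 (leave-one-out values from -1.10 to 0.305) and to 0.510 with every line counted. The short share difference turned to -2.72 points without shared molecules, -0.104 without Upf1 A2 and -1.25 without IgG A2 (leave-one-out values from -1.25 to 2.95). Library totals lowered the median of all regions to -0.80. Without shared molecules the median with library totals was -1.315, over the 52 regions then tested. Turns below 0 with that scaling came with this shift of the bulk. Among single regions, the sign turned on chromosome 1 at 88253652 with no filter (0.55), overlapping alignments only (0.054) and without shared molecules (1.22). At 45705800 on chromosome 17 it turned with distinct molecules (-0.31), every line (-0.42), library totals (-0.12) and library totals without shared molecules (-0.20). At 45707145 the same 4 settings gave -0.029, -0.068, -0.63 and -1.30, and leaving out IgG A2 gave -0.084 (IgG A1 0.185). On chromosome 19, 5796055 turned with no filter (0.28) and without shared molecules (0.69), and 5801082 with library totals (-0.64, and -1.39 without shared molecules). On chrRibo, no filter gave 0.21 at 7373, 0.35 at 7926 and 0.26 at 8837. Leaving out a library gave -0.968 to 0.082 at 7373, above 0 without IgG A2, and -0.623 to 0.00054 at 7926, above 0 without Upf1 A1. Depth limited the IgG side: with shared molecules removed, IgG A1 kept 1262 unspliced alignments.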
